A study of Homo sapiens with 30 samples.

Results

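The genes described here are 10 surface receptors with which T cells read and tune antigen signals. They are the coreceptors CD4, CD8A and CD8B, the adhesion receptor CD2, the scavenger receptor family members CD5 and CD6, the immunoglobulin superfamily receptor CD7, the costimulatory receptors CD28 and ICOS, and the adhesion and costimulatory receptor CD226 (DNAM-1). They were chosen by name, for their known function, from the 54300 gene symbols of the count tables, with earlier results of these data known. All 10 were present, and all 10 passed the filter on low counts that left 21554 symbols for testing.

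Bulk RNA sequencing was done on Jurkat E6-1, an established human T cell leukaemia line. Unedited cells (WT) were compared with cells that the series' design describes as a knockout of isoform 1 of SLAMF6, a receptor of the SLAM family (KO). The treatment protocol writes the edited cells as SLAMF6∆17-65. The title of the series instead speaks of isoform 3 being overexpressed, and the design was followed. Cells of both genotypes were unstimulated (0 h) or had been activated with PMA and ionomycin for 6, 12, 24 or 36 h, giving 10 groups of 3 libraries and 30 libraries in all. The labels give the time points without a unit. Hours were inferred from the treatment protocol, which describes a cytokine assay of 48 h in which PMA was used at 200 ng/ml. Ionomycin was used there at 300 ng/ml. The number of edited lines or clones is not given, so the edit and other differences between 2 cell lines cannot be told apart.

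Antigen recognition by the T cell receptor is helped by coreceptors: CD4 and the CD8 dimer bind MHC molecules and carry the kinase LCK to the receptor. Costimulatory receptors such as CD28 and ICOS, which bind B7 family ligands and recruit phosphoinositide 3-kinase, decide how strong the response becomes, while CD5 and CD6 are known mainly as brakes on it. PMA activates protein kinase C and ionomycin raises intracellular calcium, so the pair acts downstream of all of these receptors and engages none of them.

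Libraries held 5.64 to 28.2 M counts, with a median of 20.5 M, and the second libraries of WT and KO at 0 h were the shallow ones (7.59 and 5.64 M). The letter in the library titles is A for WT and B for KO from 0 to 24 h and C for both at 36 h; its meaning is not given, so up to 24 h letter and genotype cannot be told apart. Every comparison of 36 h with an earlier time, and every 36 h change by genotype, also crosses letters, so there letter and time cannot be told apart. SLAMF6, counted over all its isoforms, was at 21.2 ± 3.40 CPM (SD, n = 3) in WT and 19.3 ± 1.47 CPM in KO at 0 h and rose in both. It was higher in KO at 24 h (0.64 ± 0.13, adjusted p = 0.00101) and at 36 h (0.40 ± 0.13, adjusted p = 0.0330), the second call being lost without WT 36 h replicate 1 or 2 or KO 36 h replicate 1 or 3. Its counts cannot tell whether 1 isoform was lost. The activation marker CD69 rose from 24.4 to 675 CPM by 6 h in WT and from 8.57 to 662 CPM in KO (group means). Of 9 T cell markers 8 were in the table, and none of these 8 was at 0 in any library, their summed level being 3014 to 6176 CPM. The 8 monocyte markers summed to 7.91 to 17.5 CPM in WT and to 17.7 to 46.3 CPM in activated KO libraries, mostly from CD68, while CD14 stayed at or under 1.39 CPM and LYZ was at 0 in 21 of 30 libraries. Their part in the results was not tested. The 7 B cell, 6 NK cell and 8 adherent line markers summed to at most 50.8, 14.6 and 7.07 CPM.

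Levels are TMM-scaled CPM, that is counts divided by the scaled library size, listed for replicates 1, 2 and 3 of a group, and fold changes are log2 values ± SE of 1 edgeR quasi-likelihood fit of all 30 libraries. A gene was called at a Benjamini-Hochberg adjusted p under 0.05 over all tested genes. Since the labels do not say whether libraries of a group are separate cultures, the p-values reflect no more than the spread among the libraries, which may be technical. In bulk RNA, fewer cells with a transcript and less of it per cell cannot be told apart.

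The first question was how activation moved the receptors. In WT cells all 10 members were called at 6 h against 0 h, 6 higher and 4 lower, where 22.4% of all tested genes were called (11.8% higher and 10.5% lower). At 12, 24 and 36 h in WT 9, 8 and 9 members were called, beside 30.3%, 34.3% and 39.1% of all genes. In KO cells 8, 10, 8 and 7 members were called at 6, 12, 24 and 36 h, beside 27.2%, 27.8%, 32.8% and 36.7%. In each of these 8 comparisons the members' share was thus above that of all genes. The members were chosen with earlier results of these data known, so these shares describe them and test nothing. Libraries at 6, 12, 24 and 36 h did not overlap those at 0 h for 10, 9, 8 and 9 members in WT, beside 39.3%, 45%, 43% and 49.5% of all genes. In KO they did not overlap for 9, 10, 8 and 8 members, beside 38.2%, 39.1%, 42.8% and 46.5%. CD5, CD6, ICOS and CD226 rose and CD4, CD7 and CD8B fell at every time in both genotypes, as the map of changes from 0 h shows. CD8A, CD2 and CD28 had courses that depended on the time or the genotype. The median change of the 10 members ran from 0.40 to 0.68 in WT and from 0.13 to 0.48 in KO, against 0.01 to 0.12 and 0.03 to 0.05 over all tested genes.

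Between neighbouring times fewer members moved. In WT 2 were called from 6 to 12 h (9.49% of all genes), 3 from 12 to 24 h (14.9%) and 2 from 24 to 36 h (7.2%). In KO 3, 4 and 1 were called over the same steps, beside 10.8%, 14.5% and 7.43%. Without WT 12 h replicate 2 the first WT step had 0 calls, without WT 36 h replicate 2 the last had 1, and without KO 12 h replicate 2 or 3 the 12 to 24 h step in KO had 2.

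**Figure D1:**
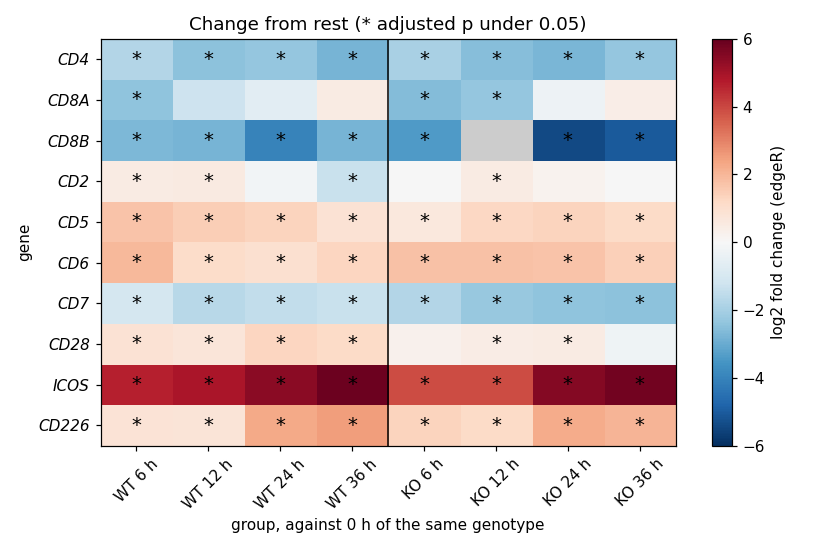
Log2 fold change of the 10 genes (rows) at each time against 0 h of the same genotype (columns; WT left of the line, KO right of it), with asterisks at an adjusted p under 0.05 and no value for CD8B in KO at 12 h, a group with 1 count. ICOS rose most in every column, while CD4, CD7 and CD8B were lower at every time.

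The coreceptor CD4, which pairs with MHC class II, was low in these cells and fell within 6 h. The WT libraries held 9.94, 12.2 and 10.9 CPM at 0 h, and 4.23, 3.03 and 2.5 CPM at 6 h. At 36 h they held 1.5, 1.08 and 1.98 CPM, so every activated WT library lay below every resting one. The fall was -1.75 ± 0.27 (adjusted p = 5.1e-06) at 6 h and -2.80 ± 0.29 (adjusted p = 9.54e-10) at 36 h. KO cells started lower, at 5.14, 5.64 and 5.22 CPM, and held 0.921, 1.40 and 1.85 CPM at 6 h. From rest to 6 h the KO fall was -1.93 ± 0.29, and the difference between the genotypes in that change was -0.18 ± 0.38 (adjusted p = 0.888; 95% interval -0.98 to 0.62).

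CD4 was thus lower in KO than in WT already before activation, and the gap was called at 4 of 5 times. KO against WT was -1.05 ± 0.26 (adjusted p = 0.0129) at 0 h, -1.23 ± 0.29 at 6 h, -1.15 ± 0.32 at 12 h and -1.47 ± 0.32 (adjusted p = 0.00225) at 24 h. At 36 h it was -0.54 ± 0.32 (adjusted p = 0.293). No KO library overlapped a WT library at 0, 6, 12 or 24 h. Averaged over the 5 times the difference was -1.09 ± 0.14 (adjusted p = 1.12e-07). The call at 0 h was lost without KO 0 h replicate 1 or 3 and without both shallow libraries, and that at 12 h without WT 12 h replicate 2 or KO 12 h replicate 1, with adjusted p-values of at most 0.0887 and 0.0939.

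CD8A, the chain shared by both CD8 dimers and a receptor for MHC class I, was near the detection limit, with at most 98 counts in any library. It dipped and came back. In WT it held 2.29, 2.15 and 1.21 CPM at 0 h, 0.184, 0.288 and 0.556 CPM at 6 h, and 3.04, 1.94 and 2.69 CPM at 36 h. In KO it held 4.0, 2.47 and 2.93 CPM at 0 h, 0.507, 0.349 and 0.731 CPM at 6 h, and 5.41, 3.44 and 3.79 CPM at 36 h. In both genotypes the 6 h libraries lay below all 0 h libraries, and the 36 h libraries overlapped those of 0 h. The fall at 6 h was -2.41 ± 0.57 (adjusted p = 0.00184) in WT and -2.59 ± 0.53 (adjusted p = 0.000254) in KO. The rise from 12 to 24 h in KO was 2.02 ± 0.52 (adjusted p = 0.00619; 0.0578 without KO 12 h replicate 2). No genotype difference was called at any time, and the average over times was 0.57 ± 0.24 (adjusted p = 0.0671; interval 0.08 to 1.07). At 0, 24 and 36 h all KO libraries nevertheless lay above the WT ones, on low counts.

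CD8B, the partner chain of the CD8 heterodimer, fell and did not return. The WT libraries held 1.71, 1.74 and 2.16 CPM at 0 h and from 0 to 0.481 CPM at every later time. The KO libraries held 3.78, 3.70 and 4.88 CPM at 0 h, 0.230, 0.917 and 0 CPM at 6 h, and from 0 to 0.246 CPM later. In KO at 12 h the 3 libraries held 1 count together, against 240 at 0 h, a ratio of 0.00394 per count sequenced with a 95% exact interval of 9.93e-05 to 0.0221 that covers counting error only. The fall in WT was -2.71 ± 0.75 (adjusted p = 0.00707) at 6 h, and without WT 6 h replicate 1 its adjusted p was 0.0504. At 24 h, on 5 counts in each genotype, it was -4.01 ± 0.90 in WT and -5.41 ± 0.88 in KO. At 0 h every KO library lay above every WT library, but the difference of 1.14 ± 0.65 was not called (adjusted p = 0.336; 0.0170 with only the compared libraries fitted). CD8B has a near-identical copy on chromosome 2 with which the authors' counting could share reads, so its level is uncertain.

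CD7, an immunoglobulin superfamily receptor of T and NK cells that binds SECTM1, fell in both genotypes and further in KO. In WT its libraries held 20.5, 25.1 and 24.9 CPM at 0 h, 7.83, 6.78 and 7.43 CPM at 12 h, and 8.52, 11.6 and 8.15 CPM at 36 h. In KO they held 24.9, 27.0 and 26.6 CPM at 0 h, 6.08, 5.73 and 4.10 CPM at 12 h, and 5.41, 5.09 and 3.87 CPM at 36 h. The groups overlapped at rest and did not overlap at 12, 24 or 36 h, where all KO libraries were the lower ones. KO against WT was -0.77 ± 0.19 (adjusted p = 0.00743) at 24 h and -0.97 ± 0.19 (adjusted p = 0.000524) at 36 h. The 36 h fall itself was larger in KO, by -1.12 ± 0.26 (adjusted p = 0.00466). The corresponding value at 24 h, -0.93 ± 0.26 (adjusted p = 0.0373), was lost in 14 of the 18 alternatives run, among them the fits without any 1 library of either 0 h group.

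**Figure D2:**
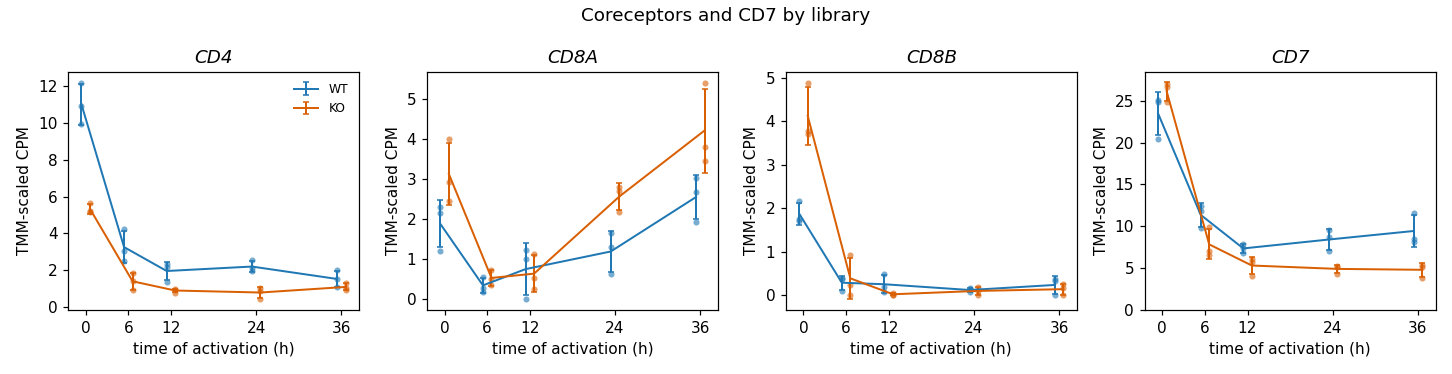
TMM-scaled CPM of CD4, CD8A, CD8B and CD7 against time of activation in hours, each point 1 library, lines and bars the mean ± SD of 3 libraries, WT in blue and KO in orange, shifted sideways for clarity. CD4, CD8B and CD7 drop by 6 h and stay low, while CD8A drops and at 36 h overlaps its resting range, with 2 of 3 WT libraries above it.

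CD2 binds CD58 on the partner cell and strengthens adhesion and signalling. Its libraries overlapped between the resting genotypes (KO against WT -0.02, interval -0.21 to 0.17) and ended far apart. The WT libraries held 226, 232 and 211 CPM at 0 h, 310, 314 and 311 CPM at 6 h, and 87.2, 85.3 and 93.3 CPM at 36 h. The KO libraries held 218, 215 and 227 CPM at 0 h, 236, 190 and 232 CPM at 6 h, and 221, 199 and 220 CPM at 36 h. The WT level thus rose early and then fell below rest, while KO libraries at 36 h overlapped their own resting range.

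In WT the changes of CD2 from 0 h were 0.48 ± 0.09 (adjusted p = 8.4e-05) at 6 h, 0.53 ± 0.09 at 12 h and -1.33 ± 0.09 (adjusted p = 5.45e-14) at 36 h. In KO CD2 rose by 0.51 ± 0.09 (adjusted p = 3.13e-05) at 12 h. The KO values at 6 and 36 h were -0.0026 and -0.04, each with an SE of 0.09 and intervals of -0.19 to 0.18 and -0.23 to 0.14. KO was lower than WT at 6 h by -0.51 ± 0.09 (adjusted p = 0.000143) and higher at 24 h by 0.37 ± 0.09 (adjusted p = 0.00521). At 36 h it was higher by 1.27 ± 0.09 (adjusted p = 3.82e-12), a ratio of mean CPM of 2.41, and the 3 KO libraries lay above all WT libraries. The 36 h difference was called in each of the 11 alternatives run for it, with values of 1.22 to 1.32. The change from 0 h differed between the genotypes by -0.49 ± 0.13 (adjusted p = 0.0247) at 6 h and 1.29 ± 0.13 (adjusted p = 1.94e-08) at 36 h. The 6 h value was lost in 9 alternatives, among them the fits without WT 6 h replicate 1, 2 or 3, with an adjusted p of at most 0.149.

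CD5, a brake on T cell receptor signalling whose level is known to follow the strength of that signal, rose in both genotypes but by less at 6 h in KO. The WT libraries jumped from 114, 98.2 and 123 CPM at 0 h to 387, 358 and 356 CPM at 6 h. The KO libraries went from 96.9, 87.4 and 102 CPM to 151, 164 and 126 CPM at 6 h. By 36 h the genotypes overlapped, with 223, 186 and 205 CPM in WT and 223, 203 and 207 CPM in KO. The rise by 6 h was 1.71 ± 0.12 (adjusted p = 1.13e-13) in WT and 0.62 ± 0.11 (adjusted p = 6.17e-05) in KO, and it differed between them by -1.09 ± 0.16 (adjusted p = 8.46e-05).

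The direct comparison of KO with WT for CD5 gave -1.32 ± 0.11 (adjusted p = 2.94e-10) at 6 h, -0.45 ± 0.11 (adjusted p = 0.00624) at 12 h and 0.04 ± 0.11 (adjusted p = 0.886) at 36 h. At 12 h KO replicate 1 stood at 282 CPM and replicates 2 and 3 at 202 and 205 CPM, against 332, 291 and 322 CPM in WT. Without KO 12 h replicate 2 or 3 the 12 h call was lost, with an adjusted p of at most 0.0656. In WT the peak came first and the level then declined, by -0.45 ± 0.11 from 24 to 36 h (adjusted p = 0.0106; 0.0783 without WT 36 h replicate 2). In KO CD5 was still rising from 6 to 12 h, by 0.65 ± 0.11 (adjusted p = 0.000126). From 24 to 36 h the KO mean also fell, from 243 to 211 CPM with no overlap of libraries, and this was not called.

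CD6, the close relative of CD5 that binds ALCAM, lies 82.0 kb from it on chromosome 11. It rose in both genotypes, and no genotype difference was called in the fit of all 30 libraries. In WT CD6 stood at 25.1, 23.1 and 40.9 CPM at 0 h, 132, 120 and 100 CPM at 6 h, and 71.4, 72.1 and 76.1 CPM at 36 h. In KO it stood at 21.4, 18.0 and 30.5 CPM at 0 h, 89.2, 96.5 and 53.2 CPM at 6 h, and 63.1, 64.0 and 64.3 CPM at 36 h. The WT level peaked at 6 h, where the KO libraries all lay below the WT ones, and KO against WT was -0.56 ± 0.23 (adjusted p = 0.126; interval -1.04 to -0.08). The change by 6 h was 1.96 ± 0.24 (adjusted p = 1.05e-07) in WT and 1.74 ± 0.24 (adjusted p = 8.09e-07) in KO. Averaged over times, KO against WT was -0.08 ± 0.10 (interval -0.30 to 0.14).

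CD28 and ICOS belong to 1 receptor family and lie 197.8 kb apart on chromosome 2, and their promoters are shown because the neighbours followed different courses. The promoter of CD226, which also rose, is shown beside them. These are the RefSeq windows of 300 bases (250 before and 50 after an annotated start) on GRCh38.p14, at chr2:203706389-203706688 (plus strand) for CD28, chr2:203936513-203936812 (plus strand) for ICOS and chr18:69956750-69957049 (minus strand) for the first of 2 windows of CD226. Capitals mark the AP-1 motif TGANTCA and the NFAT core GGAAA or its reverse complement.
CD28: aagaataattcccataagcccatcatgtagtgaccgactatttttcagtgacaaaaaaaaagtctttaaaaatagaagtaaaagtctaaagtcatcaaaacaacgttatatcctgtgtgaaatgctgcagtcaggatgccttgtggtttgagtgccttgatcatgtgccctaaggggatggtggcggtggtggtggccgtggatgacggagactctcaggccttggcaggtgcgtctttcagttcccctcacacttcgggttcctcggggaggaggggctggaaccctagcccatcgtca
ICOS: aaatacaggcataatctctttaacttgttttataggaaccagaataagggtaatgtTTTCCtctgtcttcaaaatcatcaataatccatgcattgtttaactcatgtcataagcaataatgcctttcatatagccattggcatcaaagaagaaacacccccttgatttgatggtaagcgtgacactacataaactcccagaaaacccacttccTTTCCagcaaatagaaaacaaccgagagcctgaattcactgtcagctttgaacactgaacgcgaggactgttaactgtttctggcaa
CD226: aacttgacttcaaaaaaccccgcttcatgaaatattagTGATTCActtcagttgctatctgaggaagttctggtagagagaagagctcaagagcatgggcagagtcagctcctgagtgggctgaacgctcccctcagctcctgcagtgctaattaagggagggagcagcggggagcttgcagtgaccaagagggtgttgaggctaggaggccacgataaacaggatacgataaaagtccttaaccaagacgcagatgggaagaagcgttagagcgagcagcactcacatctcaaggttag

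The ICOS window held the NFAT core at 2 places, both on the minus strand. The first CD226 window held the AP-1 motif once and no NFAT core, and the second CD226 window had no match to either. The CD28 window held neither, and 1 match to the RUNX motif TGTGGT on the plus strand. Searched on both strands, the NFAT core is in 61.2%, the AP-1 motif in 7.71% and the RUNX motif in 13.1% of the 35116 RefSeq promoter windows of the same length. A match describes letters in the window and is neither a bound site nor a cause. Windows were found for 5 members, also CD2 and CD8A. In the windows of CD2 and CD8A the AP-1 motif was not found. The CD2 window held no NFAT core, and 3 of the 4 CD8A windows held NFAT cores.

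CD28 is the main costimulatory receptor of naive T cells. Its libraries overlapped between the resting genotypes (KO against WT 0.02, interval -0.29 to 0.32), and at 36 h it was called higher than at rest in WT and not in KO. The WT libraries held 177, 177 and 164 CPM at 0 h, 442, 451 and 381 CPM at 24 h, and 376, 356 and 397 CPM at 36 h. The KO libraries held 172, 180 and 172 CPM at 0 h, 301, 276 and 162 CPM at 24 h, and 149, 137 and 158 CPM at 36 h. At 36 h all KO libraries lay below their own resting libraries, while all WT libraries lay above theirs.

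The rise of CD28 in WT was 0.85 ± 0.15 (adjusted p = 3.22e-05) at 6 h and 1.13 ± 0.15 (adjusted p = 1.18e-07) at 36 h. In KO the change was 0.27 ± 0.15 (adjusted p = 0.188) at 6 h, 0.46 ± 0.15 (adjusted p = 0.0159) at 12 h, 0.50 ± 0.15 (adjusted p = 0.00757) at 24 h and -0.24 ± 0.15 (adjusted p = 0.22) at 36 h. The KO call at 24 h was lost without KO 24 h replicate 1 (adjusted p = 0.111), and that at 12 h without KO 0 h replicate 1 or 3 or KO 12 h replicate 2 or 3, with an adjusted p of at most 0.0998. KO was lower than WT by -0.56 ± 0.15 (adjusted p = 0.00917) at 6 h, by -0.79 ± 0.15 (adjusted p = 0.00034) at 24 h and by -1.35 ± 0.15 (adjusted p = 4.89e-08) at 36 h. The 6 h call was lost without KO 6 h replicate 1 (adjusted p = 0.0861). In ratios of mean CPM the 36 h gap was 2.54 in favour of WT, and it was called in each of the 11 alternatives run, with values of -1.40 to -1.29. The change from 0 h differed between genotypes by -1.36 ± 0.21 (adjusted p = 4.17e-05) at 36 h. At 24 h it differed by -0.80 ± 0.21 (adjusted p = 0.0224), which was lost in 10 alternatives, with an adjusted p of at most 0.0856.

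ICOS, the inducible member of the CD28 family, had the largest rise of the 10 genes at every time in both genotypes. The WT libraries went from 1.94, 1.07 and 1.69 CPM at 0 h to 43.4, 44.5 and 43.3 CPM at 6 h and 110, 97.9 and 90.6 CPM at 36 h. The KO libraries went from 1.74, 3.17 and 2.67 CPM at 0 h to 49.2, 5.72 and 52.2 CPM at 6 h and 128, 122 and 138 CPM at 36 h. In both genotypes every activated library lay above every resting one, but the KO libraries of 6 and 12 h were uneven. The rise by 36 h was 5.87 ± 0.59 (adjusted p = 5.45e-10) in WT and 5.77 ± 0.58 (adjusted p = 5.24e-10) in KO.

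In KO at 12 h ICOS was at 75.8 CPM in replicate 1 and at 17.3 and 14.7 CPM in replicates 2 and 3. CD69 moved with it: it stood at 399 CPM in KO 6 h replicate 2 and at 769 and 819 CPM in the other two, and at 12 h at 922 CPM in replicate 1 against 574 and 631 CPM. Other members did not all follow ICOS. In KO 6 h replicate 2 CD5, CD6, CD28 and CD226 were each at the highest level of their group, and CD2 was at its lowest. CD226 stood there at 138 CPM, against 82.8 and 94.5 CPM in replicates 1 and 3. In KO 12 h replicate 1 CD28 and CD226 were at their lowest of the group, CD2 and CD5 at their highest, and CD6 between. The part of a difference in activation between these libraries was not tested. KO against WT for ICOS was -0.30 ± 0.43 (adjusted p = 0.775) at 6 h, and 0.21 without KO 6 h replicate 2. At 12 h it was -0.48 ± 0.43 (adjusted p = 0.528), and -1.64 (adjusted p = 0.0066) without KO 12 h replicate 1. Without KO 12 h replicate 2 or 3 the 12 h value was -0.15 or -0.10. Averaged over times it was 0.13 ± 0.22 (adjusted p = 0.715; interval -0.34 to 0.60), and no difference between genotypes was called for ICOS in any comparison.

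CD226 binds the nectin-like ligand PVR and competes for it with the inhibitory receptors TIGIT and CD96. It rose in both genotypes. The WT libraries held 36.2, 37.2 and 34.8 CPM at 0 h, 60.2, 58.2 and 73.2 CPM at 6 h, and 220, 197 and 204 CPM at 36 h. The KO libraries held 39.4, 43.5 and 41.0 CPM at 0 h, 82.8, 138 and 94.5 CPM at 6 h, and 171, 168 and 164 CPM at 36 h. At 0, 6 and 12 h all KO libraries lay above the WT ones, and at 36 h all lay below them. KO against WT was 0.72 ± 0.13 (adjusted p = 0.000136) at 6 h, 0.57 ± 0.13 (adjusted p = 0.00242) at 12 h and -0.30 ± 0.12 (adjusted p = 0.106; interval -0.56 to -0.05) at 36 h. Neither the 6 h nor the 12 h call was lost in any alternative run. The change from rest was not called different between genotypes at 6 h (0.53 ± 0.18, adjusted p = 0.121; 0.69 and 0.0246 without KO 6 h replicate 1) or at 12 h (0.38 ± 0.18, adjusted p = 0.379). Between 12 and 24 h CD226 rose by 1.49 ± 0.13 (adjusted p = 1.58e-10) in WT and by 1.04 ± 0.13 (adjusted p = 1.11e-07) in KO. In ratios of mean CPM this step was larger in WT than that from 0 to 6 h (2.81 against 1.77). In KO the step from 0 to 6 h was the larger one (2.55 against 2.06). CD226 overlaps DOK6 on the opposite strand; whether the counting used strand is not given, and DOK6 itself held 3685 counts over all 30 libraries.

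**Figure D3:**
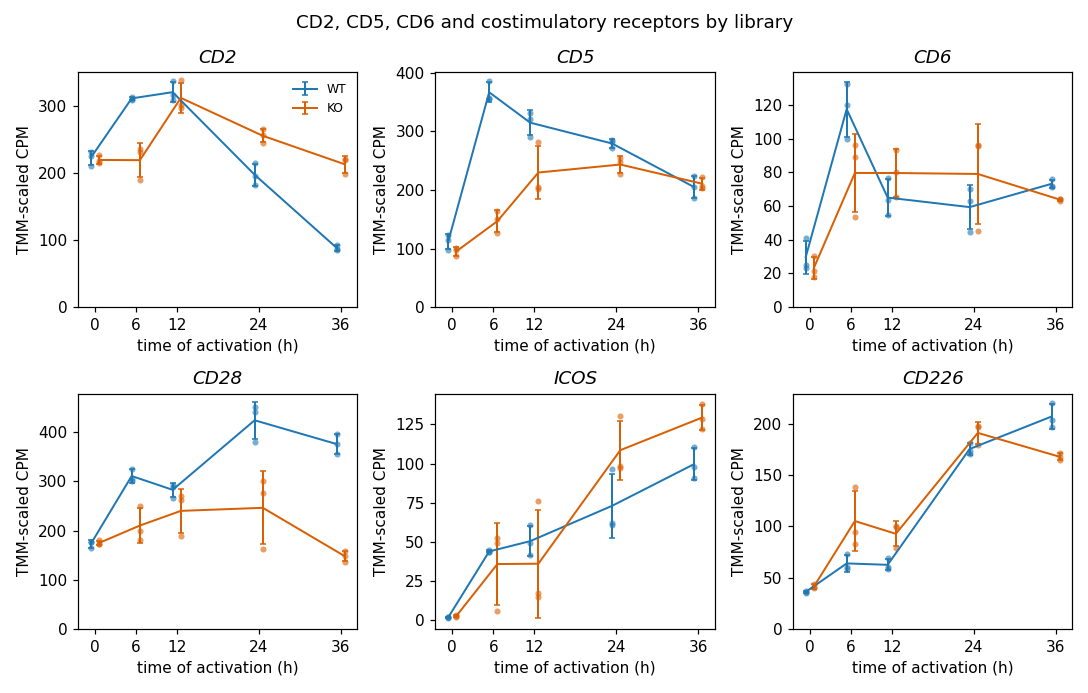
TMM-scaled CPM of CD2, CD5, CD6, CD28, ICOS and CD226 against time of activation in hours, each point 1 library, lines and bars the mean ± SD of 3 libraries, WT in blue and KO in orange. At 36 h CD2 is at 88.6 CPM in WT and 213 CPM in KO, CD28 at 376 and 148 CPM, and CD5 at 205 and 211 CPM.

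Set side by side, the comparison of KO with WT called 1 member at 0 h (CD4), beside 6.07% of all tested genes (2.96% higher and 3.11% lower). At 6 h it called 5 (CD226 higher; CD2, CD4, CD5 and CD28 lower), beside 9.97% (5.21% higher and 4.76% lower), and at 12 h 3 (CD226 higher; CD4 and CD5 lower), beside 11.6% (6.07% higher and 5.52% lower). At 24 h it called 4 (CD2 higher; CD4, CD7 and CD28 lower), beside 9.73% (4.97% higher and 4.76% lower), and at 36 h 3 (CD2 higher; CD7 and CD28 lower), beside 13.5% (6.95% higher and 6.52% lower). Libraries of the genotypes did not overlap for 4, 6, 5, 7 and 7 members at 0, 6, 12, 24 and 36 h, beside 25.2%, 28.5%, 30.7%, 23.6% and 31.4% of all genes. When only the 6 libraries compared were fitted, 0 members were called at 24 h, with adjusted p-values of 0.0520 for CD28, 0.0612 for CD7, 0.0650 for CD4 and 0.105 for CD2. In the average over times 6 of 10 members were called, beside 30.6% of all genes. The change from 0 h differed between genotypes for 2, 0, 2 and 3 members at 6, 12, 24 and 36 h, beside 3.01%, 2.06%, 3.54% and 9.33% of all genes. At 12 h 3 members, CD7, CD8B and CD226, had an unadjusted p under 0.05 in edgeR, and DESeq2 called 1. The joint test of a genotype difference in the time course called 5 members, CD2, CD5, CD7, CD28 and CD226, beside 9.84%. Its adjusted p-values were 9.64e-11 for CD2, 2.02e-06 for CD5, 0.00018 for CD28, 0.000847 for CD226 and 0.0239 for CD7.

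**Figure D4:**
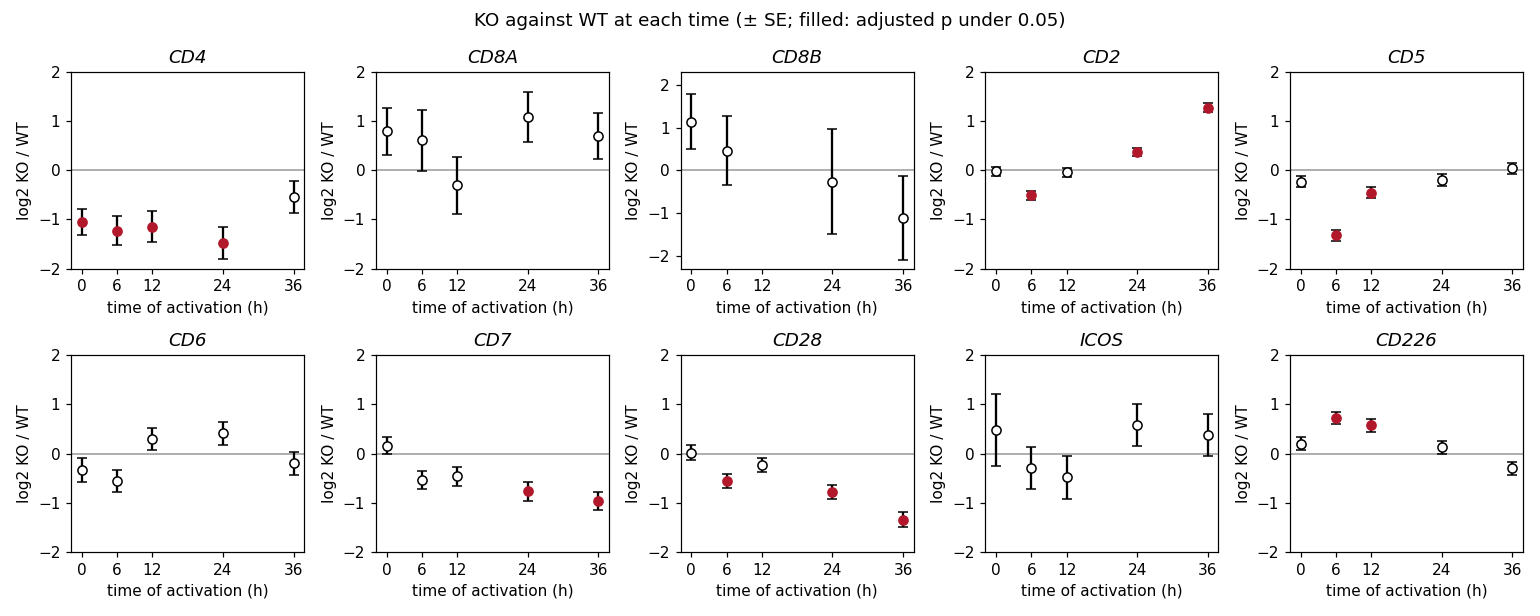
Log2 difference of KO against WT (edgeR, ± SE) for each of the 10 genes against time of activation in hours, filled where the adjusted p is under 0.05 and with CD8B at 12 h left out. CD2 moves from -0.51 at 6 h to 1.27 at 36 h while CD28 moves down to -1.35.

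The levels of the genes can be compared only per length, for which CPM was divided by the length of all annotated exons (GENCODE 29). This length counts every annotated exon, whether used in these cells or not. It ran from 1.68 kb for CD2 to 13.6 kb for CD226, and the order of the genes depends on it. At 0 h in WT, CD2 led with 133 CPM per kb, followed by CD28 at 35.3 and CD5 at 34.7, and ICOS (0.593) and CD8A (0.518) came last. At 36 h in WT CD28 led with 77 CPM per kb, before CD5 at 63.6, CD2 at 52.8 and ICOS at 37.7. At 36 h in KO CD2 still led with 127 CPM per kb, before CD5 at 65.4, ICOS at 48.9 and CD28 at 30.3. The CD8B level at rest was 1.00 CPM per kb in WT and 2.21 in KO, and CD4 stood at 2.41 and 1.16. The order of these coreceptors was not tested.

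Over the 30 libraries some members had like courses and others did not, given as a description of libraries that also share time and scaling. The highest correlation of log2 CPM between members was that of CD4 with CD7 (Pearson r = 0.89), and that of ICOS with CD226 was 0.79 and of CD5 with CD6 0.77. The values of CD2 with the other members ran from -0.47 (CD226) to 0.26 (CD5). The highest value was 0.27 for CD8A (with CD8B) and 0.58 for CD28 (with CD5). Among 10060 other genes, the closest course to CD4 and to CD7 included PDLIM1 for both (r = 0.93 and 0.96), with NFYB and HELLS for CD4 and RGL4 and UHRF1 for CD7. For CD2 the closest were ANXA1 (r = 0.88), AHNAK and ITGA1, and for CD28 MICAL1 (r = 0.91), NLK and ELF1. For ICOS they were ATG14 (r = 0.98), the chemokine gene CCL20 and TIAM2, for CD226 TMC6 (r = 0.97) and MAP1LC3B, for CD5 FAF2 (r = 0.92), NCOA2 and NHLRC3, and for CD6 PCBP3 (r = 0.93), PPP1R16B and TGFBR2. The low counts of CD8A and CD8B limit their values, which were highest for ACSL6 (r = 0.85) and SUMO3 (r = 0.90).

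The genes around these receptors were described from lists of known function. Of 20 transcription factors known for coreceptor choice and T cell lineage, KO against WT called 2 higher and 2 lower at 0 h, 1 higher and 5 lower at 6 h, 1 higher and 8 lower at 12 h, 0 higher and 10 lower at 24 h and 0 higher and 13 lower at 36 h. Over all genes 3.11%, 4.76%, 5.52%, 4.76% and 6.52% were called lower at these times. The list had a median of -0.49 at 36 h against -0.0021 over all genes. Without KO 24 h replicate 3, the library with the lowest CD28 of its group, 4 were called lower at 24 h, while 11 to 14 were called lower at 36 h in every alternative run. LEF1, a partner of the Wnt pathway in T cells, was at 277 CPM in both genotypes at rest and at 1075 CPM in WT and 302 CPM in KO at 36 h, a difference of -1.83 ± 0.13 (adjusted p = 3.12e-12). TOX2, an HMG-box factor, was at 1.34 CPM in WT and 0.354 CPM in KO at 0 h and at 16.4 and 0.811 CPM at 36 h (-4.32 ± 0.34 at 36 h). BCL6, the transcriptional repressor that drives the follicular helper T cell programme, was lower in KO by -0.79 ± 0.15 (adjusted p = 0.00048) at 36 h.

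**Figure D5:**
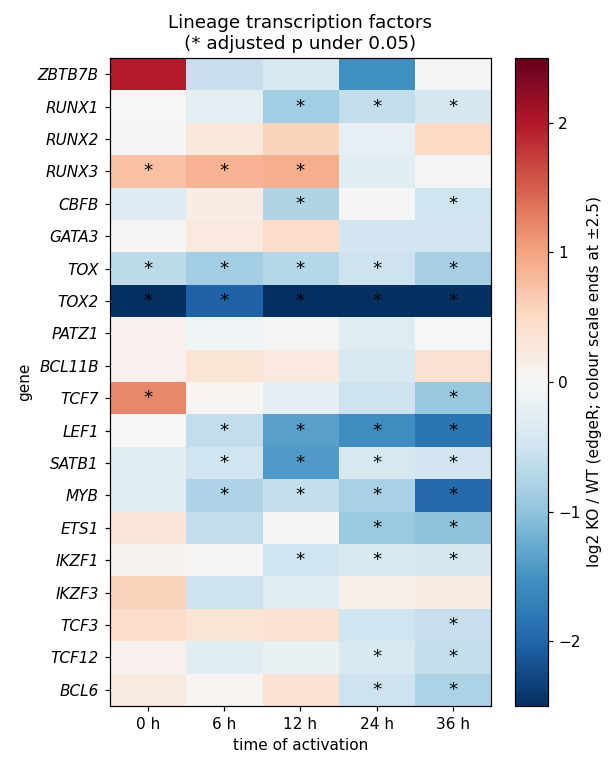
Log2 difference of KO against WT for 20 lineage transcription factors (rows) at each time of activation (columns), with asterisks at an adjusted p under 0.05 and the colour scale ending at ±2.5. The number called lower goes from 2 at 0 h to 13 at 36 h.

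Of 15 tested other costimulatory receptors and tetraspanins, 8 were higher and 1 lower in KO at 36 h, with a median of 0.44, beside 6.95% higher and 6.52% lower over all genes; without WT 36 h replicate 2, 4 were called higher. The lower one was CD40LG, the ligand with which T cells help B cells, at 22.7 CPM in WT and 0.235 CPM in KO at 0 h and at 33.2 and 0.755 CPM at 36 h (-5.41 ± 0.36). CD53 was higher in KO at every time, by 0.98 ± 0.10 (adjusted p = 7.32e-09) at 36 h. Of 10 tested inhibitory receptors 7 rose and 1 fell by 36 h in each genotype, beside 39.1% of all genes called in WT and 36.7% in KO. CD96, which shares a ligand with CD226, rose by 1.69 ± 0.11 in WT and 1.3 ± 0.11 in KO. PDCD1, which encodes PD-1, rose from 2.04 to 218 CPM in WT and from 3.99 to 133 CPM in KO between 0 and 36 h.

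Of 15 adaptors of CD2, CD5 and CD6, 10 rose and 0 fell by 36 h in WT (39.1% of all genes called), and 8 rose and 1 fell in KO (36.7%). PSTPIP1, which binds the CD2 tail, reached 43.2 CPM in WT and 119 CPM in KO at 36 h, and KO was higher by 1.46 ± 0.15 (adjusted p = 7.66e-09). CBLB, a ubiquitin ligase that restrains CD28 signalling, was lower in KO by -0.92 ± 0.17 (adjusted p = 0.000204) at 6 h and by -0.88 ± 0.16 (adjusted p = 0.000253) at 36 h. Of 20 genes of CD28 and ICOS signalling 10 rose and 3 fell by 36 h in WT (39.1% of all genes called) and 8 rose and 5 fell in KO (36.7%). Of 13 tested ligands of the members 7 rose and 1 fell in WT by 36 h and 6 rose and 0 fell in KO, beside the same shares of all genes. IL16, a ligand of CD4, rose from 29.2 CPM to 282 CPM at 24 h in WT and from 22.7 CPM to 324 CPM at 12 h in KO. By 36 h it was down to 190 CPM in WT and 201 CPM in KO. LGALS1, a ligand of CD7, was lower in KO at every time, by -1.95 ± 0.24 (adjusted p = 4.16e-07) at 12 h.

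Of 17 tested genes of the T cell receptor complex and its proximal kinases, 8 rose and 8 fell by 36 h in WT (39.1% of all genes called) and 8 rose and 5 fell in KO (36.7%). TRAC, the receptor alpha chain, rose from 267 to 1472 CPM in WT and from 269 to 1863 CPM in KO. PAG1, an adaptor that holds the LCK inhibitor CSK, fell to 17.7 CPM in WT and rose to 60.1 CPM in KO at 36 h, from 33.9 and 42.0 CPM at 0 h, and KO was higher than WT by 1.77 ± 0.13 (adjusted p = 1.28e-11) at 36 h.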

How the data were processed

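The authors deposited expected counts per gene symbol, 1 file per library, for 54300 symbols; 0.177% of the values were not whole and were rounded. GRCh37 (hg19), cutadapt, STAR and DESeq2 are named, with no version, in the submitters' processing notes. For the counting program, annotation and strand setting, "not given in the sources used here" applies. One series-wide table repeating these values was left aside. Values were identical for 0 pairs of libraries, and each library correlated with the others of its group at 0.973 to 0.986.

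Symbols were filtered with filterByExpr (minimum count 10, leaving 21554), scaled with TMM and tested with edgeR 4.0.16 (quasi-likelihood F test, 1 fit of 30 libraries and 10 group means; R 4.3.3), with Benjamini-Hochberg adjustment within each of 25 comparisons and calls at 0.05. The SE was derived from the test, as the absolute log2 value over the square root of the F value. The 95% intervals of log2 values used this SE and a t quantile at the residual degrees of freedom. They are approximate and need not match the p-values exactly. On data simulated for WT at 6 h against 0 h, 64% of 200 genes changed 2-fold among 21554 were recovered, and 3.03% of calls were false. The changed genes were drawn from those with a mean above 1 CPM and were fewer than the genes called in the data. These shares therefore need not hold for the data or for lower genes. Correlations were taken on log2 CPM (prior count 2) over genes of at least 5 CPM. Alternatives were DESeq2 size factors, library totals, no filter, the DESeq2 test (1.42.0), only the compared libraries, no shallow 0 h libraries, each library left out and a replicate block. Whether title numbers shared by WT and KO pair the libraries is not given, and the fit reported is unpaired. Libraries of the same number correlated at -0.0150 to 0.126 (1 of 12 pairs above 0.1), and 9 of 12 correlated best with their own number. These values do not settle the pairing. The 10 genes were named in every comparison; from each list up to 3 genes were named, those of the smallest p in the average KO against WT or in WT at 24 h against 0 h. Members, lists and tests were chosen with earlier results of these data known. Exons are those of GENCODE 29 on GRCh38, not the authors' build; no protein sequences were used here.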

Additional observations from a re-analysis of the deposited data

Results flagged for a closer look

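The change from 0 h differed between KO and WT, by edgeR's test of the difference, for 4 of the 10 genes at single times. At 6 h the difference (KO minus WT, log2) was -1.09 for CD5 and -0.49 for CD2. At 24 h it was -0.93 for CD7 and -0.80 for CD28. At 36 h it was 1.29 for CD2, -1.12 for CD7 and -1.36 for CD28. As given above, the calls of CD2 at 6 h and of CD7 and CD28 at 24 h were each lost in several alternatives. The joint test over the 4 later times gave adjusted p-values of 9.64e-11 for CD2, 2.02e-06 for CD5, 0.00018 for CD28, 0.000847 for CD226 and 0.0239 for CD7. At 6 h CD5 lay above all resting libraries of the same genotype in 3 of 3 libraries of each genotype. At 36 h CD28 lay above rest in 3 of 3 WT libraries and below it in 3 of 3 KO libraries.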

How the results depend on the processing

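Of 158 gene results, 137 of them called, none of the called ones changed direction in the 7 kinds of alternative fit or the 30 fits that left out 1 library. Those that changed sign were uncalled: CD28 in KO against WT at 0 h (-0.0198 with DESeq2 size factors, -0.0197 with the DESeq2 test, -0.00829 to 0.0284 leaving out 1 library), CD2 in KO at 36 h (0.00142 with library totals, -0.0710 to 0.0178), CD5 in KO against WT at 36 h (-0.00699 with library totals, -0.0198 to 0.10), CD2 in KO at 6 h (0.00026 without the filter, -0.0645 to 0.0916), CD2 in KO against WT at 0 h (0.0303 without both shallow 0 h libraries, -0.0606 to 0.00385), the 6 h change by genotype of CD4 (-0.43 to 0.0595), and ICOS at 6 h (-0.68 to 0.21) and averaged (-0.10 to 0.23). Members called moved over 1.5 times as follows. WT 12 h against 6 h: 1 with DESeq2 size factors or library totals (2 in the fit reported). The 24 h change by genotype: 1 with library totals, 1 with the compared libraries only and 0 without the shallow libraries (2). The 12 h change by genotype, with 0 called and 3 genes (CD7, CD8B and CD226) at an unadjusted p under 0.05: 3 without the filter, 1 with the DESeq2 test, 1 with the compared libraries only. The joint test: 8 without the filter (5). KO 36 h against 24 h: 2 with the DESeq2 test (1). With the compared libraries only: 2 for KO 24 h against 12 h (4), 2 for KO against WT at 0 h (1), 0 at 24 h (4) and 5 at 36 h (3). Without the shallow libraries: 0 for KO against WT at 0 h. Leaving out 1 library gave 2 to 3 for KO 24 h against 12 h, 0 to 1 for KO against WT at 0 h, 0 to 2 for WT 12 h against 6 h, 1 to 2 for WT 36 h against 24 h, 0 to 2 for the 24 h and 1 to 3 for the 6 h change by genotype. Whether the title numbers pair the libraries is not settled (9 of 12 correlated best with their own number). With a replicate block on these numbers, KO against WT called 1, 7, 3 and 4 members at 0, 6, 12 and 24 h. CD6 and CD7 were added at 6 h. Over all tested genes, DESeq2 size factors and library totals moved the share of calls that were higher from 52.4% to 39.1% and 36.8% for KO against WT at 12 h and from 40.5% to 55.4% and 55.8% for WT 12 h against 6 h; library totals moved it from 68.5% to 52.6% for the 12 h change by genotype. With the compared libraries only, calls went from 2045 to 4101 genes for WT 12 h against 6 h, from 2334 to 1276 for KO 12 h against 6 h, from 2097 to 910 for KO against WT at 24 h and from 763 to 401 for the 24 h change by genotype. The DESeq2 test gave 1049, 701 and 1222 genes for the 6, 12 and 24 h changes by genotype (649, 445 and 763), and 392, 287 and 447 were left without the shallow libraries, with 656 for KO against WT at 0 h (1309). The cause of these shifts was not tested.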
